A study of Mus musculus with 2 samples.

Results

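The set described here is the noncoding RefSeq transcripts of a mouse expression array, read as 1390 of its 39425 non-control features. A feature belonged to it where its transcript accession carried the prefix that RefSeq gives to noncoding RNA. The transcripts of H19, Meg3, Rian, Mirg, Kcnq1ot1 and Airn were set apart, which removed 10 of 1400 features. Accession alone admitted a feature, but the set and its classes were selected on the measured values of these 2 arrays, namely the processed signal and the call of well above background, with earlier results known. Its shares and differences are therefore a description and no test supports them.

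RNA came from the epididymal fat of male C57/BL mice, digested with collagenase and separated by centrifugation. SPAD, the differentiated small proliferative adipocytes, grew from cells that first floated and then sedimented in a further spin, and SVCD, the differentiated stromal vascular cells, from the lower phase left by the initial spin. Both populations were cultured in DMEM to 90% confluency, exposed to insulin, dexamethasone and IBMX (a phosphodiesterase inhibitor) for 3 days to induce fat cell formation, and returned to DMEM for 2 days. For each group 30 ng of RNA was labelled with Cy3 and hybridised to 1 array, and the labels give no number of animals or cultures. Cultures from fat hold several cell types, and neither group is described as cloned or sorted by a surface marker.

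Noncoding RNAs act without being translated. Long noncoding RNAs can scaffold nuclear bodies, silence a chromosome or regulate a neighbouring gene, and many known by a clone name have no assigned role. Small RNA host genes carry small nucleolar RNAs (snoRNAs), which guide the modification of ribosomal RNA, or microRNAs (miRNAs) in their introns or exons. Antisense RNAs are read from the strand opposite a gene, and pseudogenes are copies that have lost their coding function.

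The members fell into 7 classes by symbol and RefSeq type. These were 26 features of small RNA host genes, 78 of antisense RNAs, 248 of pseudogenes and 936 of other long noncoding RNAs. The rest were 10 features of small RNAs themselves (a class that by its rule includes the 28S ribosomal RNA, which is not small), 19 noncoding entries of protein-coding genes and 73 whose accession had no symbol in the gene table. All but 4 members were printed on 1 spot, and those 4 on 10 spots.

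The host genes with the largest excess in SPAD carry mature miRNAs on their own strand, whose RefSeq sequences (GRCm38.p6) are given to show the small RNAs these entries span. Capitals mark the seed, bases 2 to 8, which pairs with target RNAs. The first pair lies in Mir17hg, the next in Mir22hg and the last 4 in Dnm3os.
miR-92a-1-5p: aGGUUGGGauuugucgcaaugcu
miR-92a-3p: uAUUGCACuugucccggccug
miR-22-5p: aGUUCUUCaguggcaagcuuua
miR-22-3p: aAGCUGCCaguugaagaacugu
miR-199a-5p: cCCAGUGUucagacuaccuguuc
miR-199a-3p: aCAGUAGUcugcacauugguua
miR-214-5p: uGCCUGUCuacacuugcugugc
miR-214-3p: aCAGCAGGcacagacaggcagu
No seed is shared among these 8.

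The RefSeq entry of Mir17hg starts at chr14:115044390 (GRCm38.p6, + strand), inside its miRNA cluster, and 5 further miRNA genes lie within 1 kb before that start on the same strand. The main arm of each is shown because the cluster is known to be made as 1 transcript, with the seed again in capitals.
miR-17-5p: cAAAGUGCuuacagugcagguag
miR-20a-5p: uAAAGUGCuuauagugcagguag
miR-18a-5p: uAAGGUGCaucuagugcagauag
miR-19a-3p: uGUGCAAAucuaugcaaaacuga
miR-19b-3p: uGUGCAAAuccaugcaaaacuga
Here miR-17-5p and miR-20a-5p share the seed AAAGUGC, and miR-19a-3p and miR-19b-3p share GUGCAAA. The arrays measured the host transcripts, not the mature miRNAs.

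Signals are processed intensities as deposited. A difference is the log2 signal minus the array's own 75th percentile, SPAD minus SVCD, so 1 is a 2-fold excess in SPAD. The ± value is the SD between repeat spots of equally bright features, combined over the 2 arrays, and covers printing and reading but not cultures, RNA extraction or labelling. With 1 array per group, their number limits the precision and nothing was tested. Scaling to the spike-in controls instead lowered every difference by 0.84, and the median of all features from 0.09 to -0.75, so each direction below is relative to the other features of the array.

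Both arrays lay on the same slide, their 75th percentiles were 621.6 (SPAD) and 678.0 (SVCD), and 64.5% and 65.6% of features were well above background. The adipocyte markers checked were higher in SPAD by at least 2-fold for 6 of 7 genes, with Cebpa at -0.43. All 5 markers of dividing cells were lower in SPAD, from -7.33 to -4.24, and their summed signal was 536.4 in SPAD and 16656 in SVCD. Macrophage markers were lower for all 4 measured on both arrays, Fcgr1 was well above background in SVCD alone, and the summed signals were 8636 and 75050. Endothelial markers were higher for 4 of 5, with sums of 6622 and 3824. Smooth muscle markers were lower for 3 of 4, with sums of 15274 and 212077. All 5 mesothelial markers were lower, from -5.575 to -0.699, 2 of them by at least 2-fold on both arrays. Among them Upk3b was well above background in SVCD alone, and the sums were 1120 and 5232. Progenitor markers were at least 2-fold higher for 1 and at least 2-fold lower for 1 of 4, with sums of 1244 and 1159. The macrophage marker Cd68 had no feature. In SPAD, Fcgr1 read 9.93 and Upk3b 2.44, not well above background, and all other markers measured were well above it on both arrays. In such mixed cultures fewer cells of a type and less RNA per cell cannot be told apart, and the part of these markers in the results below was not tested.

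Fewer noncoding transcripts than other features were measurable. On both arrays 552 members were well above background (39.7%), against 61.0% of all features. A further 70 of the 1390 members passed in SPAD but not in SVCD, 64 in SVCD but not in SPAD, and 704 passed in neither group. Over all 39425 features these counts were 1366, 1820 and 12191. Detection on both arrays reached 22 of 26 features for small RNA host genes and all 10 for small RNAs. It was 124 of 248 for pseudogenes, 29 of 78 for antisense RNAs and 308 of 936 for other long noncoding RNAs.

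Among these 552 members, 111 (20.1%) exceeded their SVCD value at least 2-fold in SPAD, where 14.3% of all features did. Another 39 (7.07%) were at least 2-fold lower, where 11.7% of all features were. Members thus lay more on the SPAD side: 365 had a difference above 0 and their median was 0.31, against 0.09 over all features. Of the members past 2-fold, 74.0% were higher in SPAD, against 55.1% over all features. With spike-in scaling these shares were 24% and 12.2%, and the members' median of -0.53 again stood above that of all features. The members nearest the 2-fold size were at 1.01, 1.03 and 1.08 inside it and 0.98, 0.99 and 0.99 outside on the SPAD side. On the SVCD side they were at -1.02, -1.03 and -1.05 inside and -0.96, -0.96 and -0.98 outside. Of the 150 members past it, 37 lay within 1 spot SD of it.

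**Figure D1:**
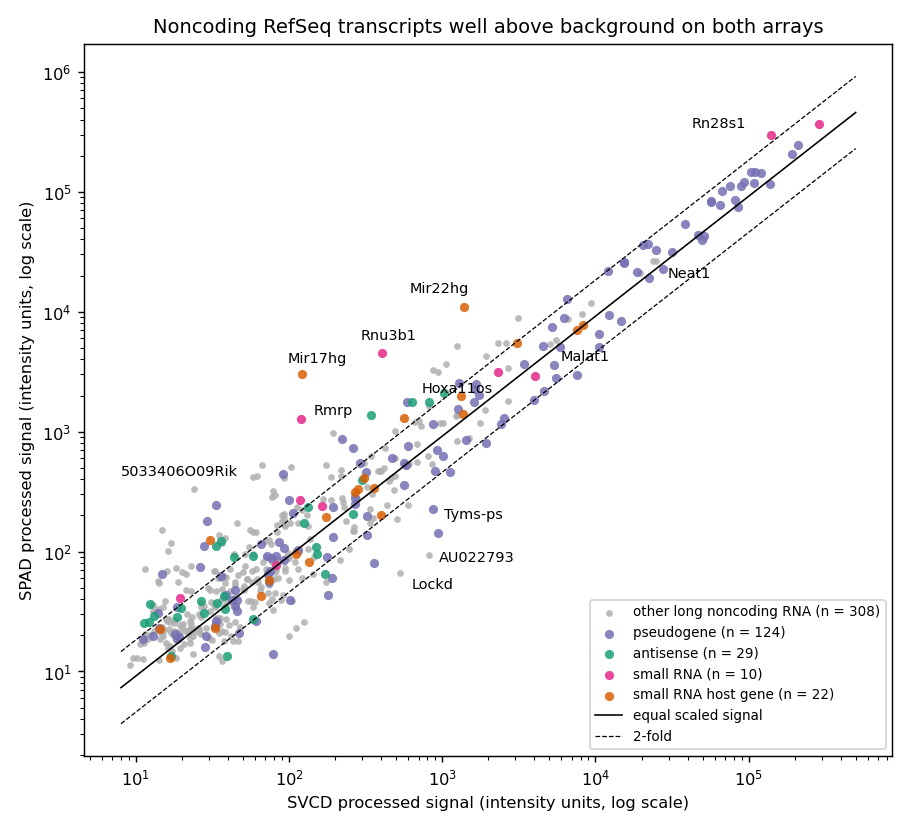
Processed signal of each noncoding transcript well above background on both arrays, SVCD on the horizontal and SPAD on the vertical axis (intensity units, log scales), coloured by class; 14 noncoding entries of coding genes and 45 unnamed accessions are left out. The solid line marks equal scaled signal and the dashed lines a 2-fold difference; Mir17hg, Mir22hg, Rnu3b1 and Rmrp stand far above it, and Lockd, AU022793 and Tyms-ps below.

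Dim features lean towards SPAD on these arrays. Below background on both arrays, the median difference was 0.45 for the 704 members and 0.45 for the 11487 other features. The members' excess was also seen among bright features. At a mean log2 signal of 7 to 8 the median was 0.65 for 50 members and 0.05 for 2615 other features, and at 9 to 11 it was 0.42 for 63 and 0.03 for 4807. Above 11 it was 0.33 for 80 members and 0.06 for 5681 others. In the dimmest bin, below 5, both medians were raised, at 0.31 and 0.26.

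**Figure D2:**
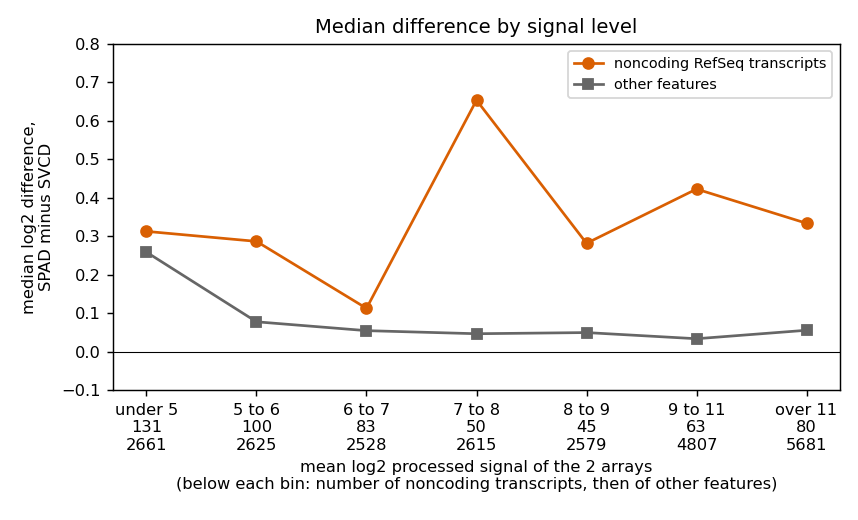
Median log2 difference (SPAD minus SVCD) of noncoding transcripts (circles) and of all other features (squares), by mean log2 signal over both arrays, for features well above background on both. The members' median lay above the others' in each of the 7 bins, from 0.11 against 0.06 at 6 to 7 to 0.65 against 0.05 at 7 to 8.

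Small RNA host genes held the largest difference among members on both arrays and also transcripts of nearly equal signal. Of 22 features, 4 (18.2%, near the 14.3% of all features) were higher in SPAD by at least 2-fold and 0 lower, with a median of 0.21 (-0.63 with spike-in scaling). Mir17hg, the primary transcript of a miRNA cluster known for promoting cell division, read 3010 in SPAD and 121.7 in SVCD. That is a 27.0-fold excess (4.75 ± 0.11) on the array whose division markers were the lower. Mir22hg, the host of miR-22, read 10892 in SPAD and 1383 in SVCD, an 8.59-fold excess (3.10 ± 0.08). Both signals of each gene were far from background.

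Dnm3os, the host of miR-199a and miR-214 on the strand opposite Dnm3, gave values that depended on the feature. One feature read 124.6 in SPAD and 30.3 in SVCD (2.16 ± 0.26), another 22.7 and 14.5 (0.78 ± 0.56), and the third was below background on both arrays. Mir1a-1hg, the host of a muscle miRNA, was detected in SPAD alone, at 15.7 against 2.35, which allows at least 1.99-fold. Hosts of miRNAs without such an excess were Dleu2, which carries miR-15a and miR-16, at 192.8 and 175.2 (0.26 ± 0.13), and Mir100hg at 57.7 and 74.0 (-0.23 ± 0.32). Ftx, a regulator of Xist, had features at -0.50 and -0.25, each within 2 of its spot SDs.

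The 13 features of snoRNA hosts were all well above background on both arrays, and 1 of them passed 2-fold. Snhg1 read 1293 in SPAD and 561.9 in SVCD (1.33 ± 0.08). Snhg3, at 5528 and 3062, came next with 0.98 ± 0.08, just under 2-fold, followed by Snhg12 at 1998 and 1331 (0.71 ± 0.08). The brightest hosts were level: Snhg15 read 7027 and 7580 (0.02 ± 0.08), and Snhg6 read 7772 and 8286 (0.03 ± 0.08). Snhg18 lay on the SVCD side, at 200.8 and 397.5 (-0.86 ± 0.10). A set of hosts that share the trait of carrying snoRNAs thus spread over more than 2 log2 units.

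All 10 features of the small RNA class were measurable, with 5 (1 of them 28S ribosomal RNA) higher in SPAD by at least 2-fold and 0 lower. Over all features 14.3% were higher and 11.7% lower. The class median was 0.94, 0.54 with normexp, 0.81 with quantile normalization and 0.10 with spike-in scaling. Rnu3b1, a U3 snoRNA needed for the first cuts in the ribosomal RNA precursor, read 4536 in SPAD and 407.0 in SVCD (3.60 ± 0.08, 12.2-fold). Rmrp, the RNA of the ribonuclease MRP, which also cuts that precursor, read 1279 and 120.3 (3.54 ± 0.11, 11.6-fold). Among members on both arrays, Mir17hg and 5033406O09Rik alone were further to the SPAD side. On the SVCD side the unnamed NR_045098, at 24.8 and 328.4 (-3.60 ± 0.31), was the lowest member. The 28S ribosomal RNA feature Rn28s1 read 298098 and 140711 (1.21 ± 0.08), and 0.95 with quantile normalization, which is under 2-fold. Snora74a, an H/ACA snoRNA, read 267.3 and 118.3 (1.30 ± 0.11), and Snora47 read 41.0 and 19.4 (1.21 ± 0.39).

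Other small RNAs did not follow. Rnu12, of the minor spliceosome, was on the SVCD side at 2887 and 4056 (-0.37 ± 0.08), and the telomerase RNA Terc was level at 77.5 and 82.0 (0.05 ± 0.13). The U1 RNA feature Rnu1b6 read 3164 and 2322 (0.57 ± 0.08). The labelling kit starts from poly(A) tails, which most of these RNAs lack, and how they entered the labelled pool was not tested.

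Antisense RNAs had a median above those of pseudogenes, host genes and other long noncoding RNAs, 0.74 over 29 features on both arrays. Of these features 11 (37.9%) were at least 2-fold higher and 2 (6.9%) lower, where 14.3% and 11.7% of all features were. The class was dim, with median signals of 64.95 in SPAD and 39.21 in SVCD. With normexp background correction 6 features were at least 2-fold higher. The median difference was 0.37 with normexp, 0.58 with quantile normalization and -0.10 with spike-in scaling. Zbtb11os1 led at 1365 in SPAD and 342.9 in SVCD (2.12 ± 0.08), and its sense gene Zbtb11, a zinc finger gene, stood at 1.15. Hoxa11os, opposite the limb and uterus patterning gene Hoxa11, read 1778 and 638.3 (1.60 ± 0.08), and Hoxa11 itself read 769.5 and 336.0 (1.32). In these pairs both strands were higher in SPAD.

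In other pairs the antisense RNA was higher while the coding gene was level. Phtf1os read 123.2 and 36.0 (1.90 ± 0.26) where Phtf1 stood at 0.18, and Appbp2os read 112.3 and 33.5 (1.87 ± 0.26) where Appbp2 stood at 0.20. Sp3os, read by a pair of features, stood at 1.16 and 1.24 (2093 and 1024 on the brighter one), while Sp3, a GC-box binding factor, stood at -0.21 with signals of 51.0 and 64.2. Atad3aos, at 36.3 and 12.3 (1.69 ± 0.56), was dim beside an Atad3a of 0.14.

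A few pairs were opposed. Smc2os was higher in SPAD, though dim at 25.3 and 11.4 (1.28 ± 0.56), while Smc2, a condensin subunit of dividing cells, read 293.3 in SPAD and 1499 in SVCD (-2.23). Lppos read 234.5 and 134.0 (0.93 ± 0.13) where Lpp, a focal adhesion gene, stood at -1.56. On the SVCD side, Dnmt3aos read 65.0 and 172.5 (-1.28 ± 0.13) and the DNA methyltransferase gene Dnmt3a -2.07. Has2os read 27.6 and 57.8 (-0.94 ± 0.39), and the hyaluronan synthase gene Has2 was well above background in SVCD alone, at 522.0 against 9.32. Over the 23 pairs with both sides measured, 15 had the same sign, with r = 0.39 (Pearson) and 0.29 (Spearman) across pairs on the same arrays.

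**Figure D3:**
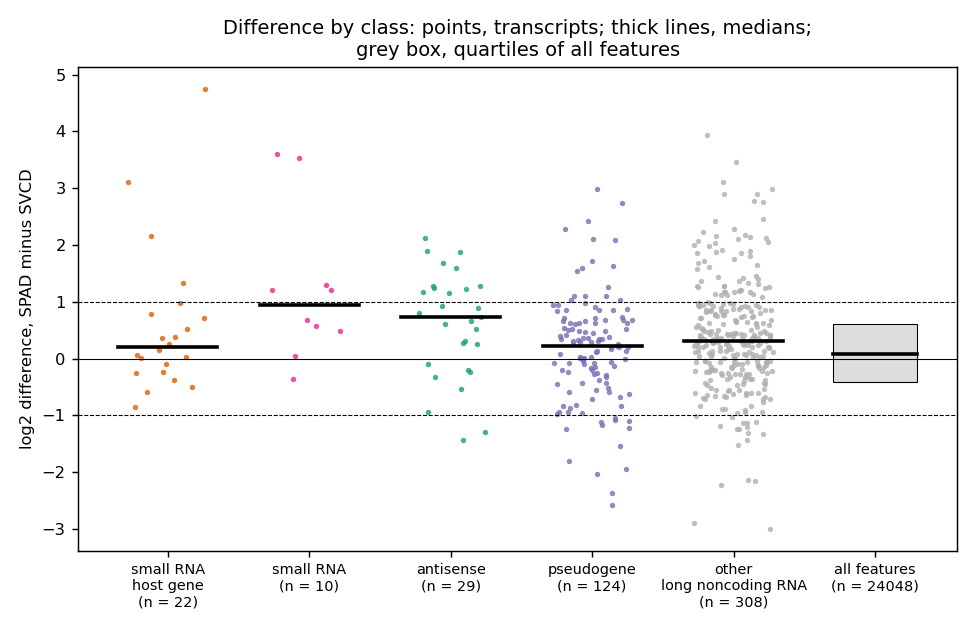
Log2 difference (SPAD minus SVCD) of each noncoding transcript well above background on both arrays, by class, with class medians as thick lines; the grey box gives the quartiles and median of all 24048 features, and dashed lines mark 2-fold. The antisense and small RNA medians of 0.74 and 0.94 lie highest, and the pseudogene and host gene medians of 0.22 and 0.21 nearest the 0.09 of all features.

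Pseudogenes lay close to the array as a whole, with 16 of 124 features (12.9%) at least 2-fold higher and 13 (10.5%) lower, where 14.3% and 11.7% of all features were. Their median was 0.22, 0.07 with quantile normalization and -0.62 with spike-in scaling. BC025920 was the highest of those on both arrays, at 243.1 in SPAD and 33.5 in SVCD (2.99 ± 0.26), with another feature at 2.74. Cyp4f41-ps, of a cytochrome P450 family, read 110.2 and 27.9 (2.11). At the other end Gm8096 read 142.7 and 933.9 (-2.59 ± 0.10) and Tyms-ps read 228.4 and 872.4 (-1.81 ± 0.10). Tyms-ps copies the thymidylate synthase gene, needed for DNA synthesis, but the feature of Tyms itself stood at -0.16 with signals of 53.9 and 65.8.

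Where a pseudogene's parent could be paired by symbol, 12 of 13 pairs had the same sign, with r = 0.65 (Pearson) and 0.81 (Spearman) across pairs. The pairs are not independent, since Pisd was the parent of both Pisd-ps1 and Pisd-ps3. Some lay near 0, such as Tdg-ps2 at -0.04 and Tdg at -0.09. Each gene was read on its brightest feature, and the features of Smarca5-ps ranged from -0.62 to 1.11. Pdxk-ps stood at -1.22 and the pyridoxal kinase gene Pdxk at -1.41. Hmga2-ps1 stood at -0.82 and Hmga2, a chromatin protein gene of growing cells, at -1.63. Gpr137b-ps and Gpr137b stood at -0.67 and -0.68. Near-identical copies can share a probe's signal, and this was not tested. Sprr2g, of the cornified envelope family but with a noncoding RefSeq entry, and Mospd4 were the pseudogene features of largest bound in SPAD alone. Sprr2g read 5496 in SPAD against 6.67 in SVCD, at least 697-fold higher, which is the largest bound of the set. Mospd4 read 109.7 against 5.68, at least 13.9-fold.

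Other long noncoding RNAs made up most of the set. Of its 308 measured features, 61 (19.8%) passed 2-fold on the SPAD side and 18 (5.84%) on the SVCD side, where 14.3% and 11.7% of all features did. The class median was 0.31 (-0.53 with spike-in scaling). The leader was 5033406O09Rik, at 333.9 in SPAD and 23.8 in SVCD (3.93 ± 0.25). Gm8884 read 151.2 and 14.9 (3.47 ± 0.48), and 1810062O18Rik read 524.8 and 66.6 (3.10 ± 0.11). Mirt2, known from infarcted hearts and inflammation, read 422.3 and 58.5 (2.98 ± 0.25). Except for Mirt2 these have no role that could be given here.

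Those lower in SPAD began with AU022793, at 93.7 in SPAD and 813.8 in SVCD (-2.99 ± 0.10). Lockd, which lies near the cell cycle inhibitor gene Cdkn1b, read 66.0 and 532.6 (-2.89 ± 0.10), an excess of 7.40-fold in SVCD, while Cdkn1b stood at 0.34. Mexis, which in macrophages promotes the cholesterol exporter Abca1, was well above background in SVCD alone, at 86.6 against 11.4, at least 6.98-fold lower in SPAD. The macrophage markers given above were lower in SPAD too, and so were 11.7% of all features by at least 2-fold. Whether those markers are linked to Mexis was not tested. D630010B17Rik and Gm5086 were likewise seen in SVCD alone, at least 10.6-fold and 10.3-fold lower in SPAD.

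The familiar long noncoding RNAs of nuclear bodies differed little, and others ranged more widely. Neat1, the scaffold of paraspeckles, read 26267 in SPAD and 25004 in SVCD (0.20 ± 0.08), and Malat1, of nuclear speckles, read 5330 and 5051 (0.20 ± 0.08). Norad, which binds Pumilio proteins, ranged from -0.05 to 0.74 over 4 features. Pvt1, beside Myc, stood at -0.06 and -0.68. Tug1 features disagreed, at -0.77, 0.43 and 1.26, the last of them read on 10 spots per array with a spot SD of 0.04. Fendrr, Firre, Jpx and Wt1os were below background on both arrays.

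Among the 48 genes with several features on both arrays, 39 had all features in the same direction, and the median spread between features of a gene was 0.31. Of the 16 genes with any feature past 2-fold, 13 agreed in direction. The spread reached 1 log2 unit for 4 genes, Tug1, Dnm3os, Smarca5-ps and 4931440P22Rik. A value of a single feature thus carries a spread beyond its spot SD, whose median was 0.13.

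Of the members on 1 array alone, 49 of 70 in SPAD had a bound of at least 2-fold, where 74.0% of such features did over the array. In SVCD it was 12 of 64, where 34.2% did. The members' share lay near the background in SPAD and below it in SVCD. A330093E20Rik, at 81.5 in SPAD against 4.83, was at least 10.3-fold higher.

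Noncoding transcripts often start next to a coding gene or overlap it, as placed here by the RefSeq gene table (GRCm38.p6). Gm14207, on the strand opposite the Notch ligand gene Dll4 and overlapping it, read 101.2 in SPAD and 16.2 in SVCD (2.77), and Dll4, which marks sprouting endothelium, read 213.7 and 32.4 (2.85). Of the 5 endothelial markers, 4 lay on the SPAD side as well, but Kdr read 2090 in SPAD and 3202 in SVCD (-0.49). Any link of these markers to Gm14207 or Dll4 was not tested. Gdap10, which overlaps the NAD synthesis gene Nampt, read 5133 and 1256 (2.16), and Nampt read 10204 and 2207 (2.34). Whether a feature also catches the overlapping gene's RNA was not tested where they share a strand.

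Pairs with start sites within 1 kb of each other on opposite strands varied. The noncoding 2810013P06Rik (2.17) and Ankrd11 (1.35), and likewise 4933421O10Rik (1.89) and Ube2j1 (1.17), were both past 2-fold in SPAD. Against these, 1600023N17Rik read 69.4 and 16.1 (2.24) where the condensin gene Ncapg, expressed in dividing cells, was well above background in SVCD alone. Over 51 such pairs the differences had r = 0.18 (Pearson) and 0.23 (Spearman), and over 48 pairs overlapping on opposite strands 0.31 and 0.33. Over 65 pairs overlapping on the same or an unknown strand they had 0.26 and 0.33, and over 171 nearest neighbours without overlap 0.12 and 0.13. Whether these kinds of pair differ was not tested. All pairs share the arrays and their scaling.

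Members higher in SPAD had promoters richer in CpG, the dinucleotide whose density marks CpG islands. The window held 300 bases, 250 before and 50 after the RefSeq start, and was found for 266 of the 440 named member genes on both arrays. These were 226 of 285 other long noncoding RNAs, 21 of 28 antisense RNAs, 18 of 19 small RNA host genes and 1 of 98 pseudogenes, so the relation was not examined for pseudogenes or small RNAs. The 57 genes past 2-fold on the SPAD side had a median of 27 CpG, the 194 between had 10 and the 15 lower had 5. For protein-coding genes the medians were 18, 20 and 16. This relation was looked for after the differences were known, and bins of CpG number were set then.

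Of 85 member genes with 25 or more CpG, 32 (37.6%) were at least 2-fold higher and 1 was lower, with a median difference of 0.72. Of 3705 protein-coding genes with as many, 14% were higher and 9.72% lower, with a median of 0.12. These coding genes were far brighter, with a median signal over both arrays of 925.9 against 70.0 for the 85 members. Coding genes were not split by signal, and the part of brightness in this contrast was not tested. Among members with 0 to 4 CpG, 9 of 67 were higher and 7 lower, and among those with 5 to 14, 8 of 80 and 7. Over the 266 members the Pearson correlation of CpG number with the difference was 0.22 and the Spearman 0.23, across genes on the same arrays. Over 10929 coding genes both were 0.04. The members' windows also differed in GC content, with medians of 64.0% for those higher, 54.2% between and 52.0% for those lower. The part of GC content was not tested. With spike-in scaling 14 of the 85 were higher and 19 lower, where 5.06% and 36.4% of all features were.

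The same count was made within signal levels, neighbour types and classes. Under a mean log2 signal of 7, 22 of 53 members with 25 or more CpG were at least 2-fold higher, against 12 of 129 with fewer. At 7 or more it was 10 of 32 against 13 of 52, which is closer. Within 1 kb of a coding start on the other strand it was 12 of 38 against 4 of 20, and elsewhere 20 of 47 against 21 of 161. In the class of other long noncoding RNA it was 24 of 66 against 20 of 160, and among antisense RNAs 7 of 12 against 2 of 9. Small RNA host genes ran the other way, with 1 of 6 against 3 of 12.

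Promoters from both ends of this relation follow (RefSeq, GRCm38.p6), with each CpG in capitals. The first 3 belong to transcripts higher in SPAD, of which Gm14207 and Hoxa11os were described with their coding partners, and the last pair to transcripts lower in SPAD.
1810062O18Rik, chr14:20546043-20546342 (+ strand): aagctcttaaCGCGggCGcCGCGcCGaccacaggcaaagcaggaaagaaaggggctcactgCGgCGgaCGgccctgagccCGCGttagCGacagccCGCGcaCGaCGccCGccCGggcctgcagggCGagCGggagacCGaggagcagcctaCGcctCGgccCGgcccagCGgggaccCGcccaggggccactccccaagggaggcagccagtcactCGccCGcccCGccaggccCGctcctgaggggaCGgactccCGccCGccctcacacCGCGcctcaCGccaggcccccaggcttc
Gm14207, chr2:119326148-119326447 (- strand): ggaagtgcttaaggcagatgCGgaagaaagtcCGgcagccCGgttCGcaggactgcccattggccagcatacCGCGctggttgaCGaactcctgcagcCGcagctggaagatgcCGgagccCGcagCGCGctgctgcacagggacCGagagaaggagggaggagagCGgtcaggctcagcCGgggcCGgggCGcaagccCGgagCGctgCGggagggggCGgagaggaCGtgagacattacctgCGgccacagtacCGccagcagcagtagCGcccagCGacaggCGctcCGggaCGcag
Hoxa11os, chr6:52244993-52245292 (+ strand): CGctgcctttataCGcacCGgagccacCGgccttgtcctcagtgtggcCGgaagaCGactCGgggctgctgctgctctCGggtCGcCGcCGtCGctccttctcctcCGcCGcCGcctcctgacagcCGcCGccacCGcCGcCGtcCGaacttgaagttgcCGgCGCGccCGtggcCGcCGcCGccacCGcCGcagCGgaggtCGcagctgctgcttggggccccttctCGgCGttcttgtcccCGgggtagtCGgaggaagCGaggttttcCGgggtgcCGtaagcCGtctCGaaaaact
Lockd, chr6:134928842-134929141 (+ strand): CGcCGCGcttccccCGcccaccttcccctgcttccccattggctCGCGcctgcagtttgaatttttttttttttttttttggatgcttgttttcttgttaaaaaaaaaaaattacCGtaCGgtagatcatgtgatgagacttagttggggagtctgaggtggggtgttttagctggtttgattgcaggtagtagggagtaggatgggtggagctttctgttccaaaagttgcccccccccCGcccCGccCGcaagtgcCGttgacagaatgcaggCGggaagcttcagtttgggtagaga
Gm5547, chr3:105815317-105815616 (+ strand): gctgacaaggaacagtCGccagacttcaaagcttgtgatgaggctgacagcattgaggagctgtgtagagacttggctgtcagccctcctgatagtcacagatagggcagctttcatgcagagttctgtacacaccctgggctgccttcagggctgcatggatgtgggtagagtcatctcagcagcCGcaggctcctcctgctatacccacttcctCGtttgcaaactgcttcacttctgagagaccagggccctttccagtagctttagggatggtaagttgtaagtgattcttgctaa
These windows hold 36, 29, 41, 13 and 3 CpG. Gm5547 read 23.1 in SPAD and 110.9 in SVCD (-2.14 ± 0.32). The relation is one of groups, and the 3 highest members with a window do not follow it: Mir17hg, 5033406O09Rik and Gm8884 have 4, 6 and 3 CpG there. For Mir17hg the window lies at a RefSeq start inside its miRNA cluster.

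**Figure D4:**
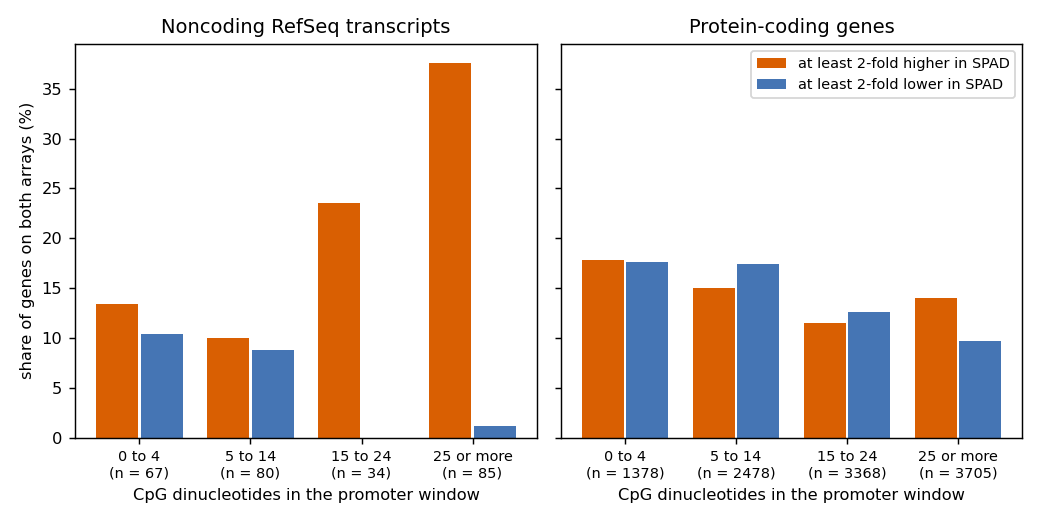
Share of genes at least 2-fold higher (orange) or lower (blue) in SPAD, among those measured on both arrays, by the number of CpG in the promoter window, for noncoding RefSeq transcripts (left) and protein-coding genes (right). Among noncoding transcripts the higher share is 37.6% at 25 or more CpG and 10% at 5 to 14, while among coding genes it stays between 11.5% and 17.8%. The coding genes were brighter in every bin.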

How the data were processed

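RNA of 2 groups, SPAD and SVCD, was hybridised to 1 single-colour Agilent array each, per the labels. The deposited scanner files hold processed intensity per spot, background-subtracted on a linear scale, per the file headers. The submitters' processing notes name Agilent Feature Extraction 10.7.3.1. The authors also deposited a table of log2 values centred per probe, with column medians of 0.16 (SPAD) and -0.16 (SVCD). Set against the scanner values of 24048 features, the SPAD minus SVCD difference of that table had r = 1.00 and a slope of 1.00, which settles its scale and direction, while its levels were lost to centring. The build of the array's own annotation is not used here.

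Control spots and the 73 (SPAD) and 85 (SVCD) outlier spots were left out and repeat spots averaged on the log2 scale. Values were scaled to each array's 75th percentile. Features were counted from a log2 difference of 1 among those called well above background on both arrays. For a feature seen on 1 array, the dim side was the higher of its own value and the lowest signal well above background, giving "at least N-fold". A single array per group allows no test. Spot SDs came from repeated probes in 6 signal bins per array. The counting was run on SVCD spots with known shifts added. Those spots were brighter than most members and the shifts lay well past 2-fold, so this checks the code and not the counts of dim members.

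Accessions were named through the RefSeq gene table (GRCm38.p6, matched without versions): 1317 of 1390 members had a symbol. The 2 features of an H19 accession missing from that table were also left out. Members, classes, lists and the CpG analysis were chosen with earlier results of these data known. Named members are a list of familiar noncoding RNAs (34 of 59 found, 30 detected), the 12 highest and 12 lowest differences, the 5 largest bounds per direction, the 4 largest per class and those nearest 2-fold. Pair examples, further class members and the promoters printed were chosen after their values were seen. Alternatives used limma 3.58.1, quantile, median and spike-in scaling, other filters and the deposited log2 table. Python 3.11.15, pandas 2.3.3 and numpy 2.4.6 were used.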

Additional observations from a re-analysis of the deposited data

How the results depend on the processing

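Of the 46 named features past 2-fold on both arrays, all kept their direction under normexp background correction and quantile normalization, and 33 and 43 stayed past 2-fold. Median and spike-in scaling shifted every difference by -0.07 and -0.84, and the authors' table repeats the main differences. These settings could not turn the direction of a feature past 2-fold. Under them 44 (median), 35 (spike-in) and 46 (authors' table) stayed past 2-fold. Quantile and median scaling, the authors' table, 1 feature per gene and the brighter features alone left the counts over all members within 1.5 times. Under normexp, run on the median spot signal because the mean was not in the files, 63 members were at least 2-fold higher and 17 lower, where 9.12% and 7.71% of all features were. By class these were 6 and 0 for antisense RNAs, 9 and 8 for pseudogenes, 30 and 5 for other long noncoding RNAs, and 15 and 0 for members with 25 or more CpG. Class medians under normexp were 0.37 for antisense RNAs and 0.54 for small RNAs, and under quantile normalization 0.58, 0.81 and, for pseudogenes, 0.07. Under spike-in scaling, from 8 spike-in features, 5.06% of all features were higher and 36.4% lower, with a median of -0.75. Among members 47 of 552 were higher and 149 lower, with a median of -0.53. By class these were 3 and 6 for host genes, 3 and 7 for antisense RNAs, 6 and 40 for pseudogenes, 27 and 82 for other long noncoding RNAs and 2 and 1 for small RNAs. Without a filter on dim features, 266 members were higher and 93 lower with a median of 0.45, close to that of features below background. These were 18 and 5 for antisense RNAs, 41 and 25 for pseudogenes and 175 and 56 for other long noncoding RNAs. Brighter features alone gave 7 and 1 for antisense RNAs and 40 and 13 for other long noncoding RNAs, from fewer features. With the looser call of a significant positive signal, 820 members were detected on both arrays, 507 of them other long noncoding RNAs. The cause of the other changes was not tested.

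The error that Feature Extraction gives had a median of 0.21, against 0.13 between spots. Keeping the left-out H19 accession, a choice made after seeing the data, changed no count, nor did it add a feature on both arrays. Classes from the words of the array files were not run, since the files used here hold none. No paired analysis was possible because each group has 1 array. Signal over background limits what can be said of the 704 members below it, and 1 array per group leaves differences between cultures unmeasured.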

Other observations

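Both features of Xist, the RNA that coats the inactive X chromosome of females, were well above background on both arrays although the labels give male mice. The signals were 734.1 in SPAD and 421.6 in SVCD on one feature (0.93) and 788.2 and 686.2 on the other (0.33).

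Short promoter motifs were counted on both strands of the same 300-base windows. The E-box CACGTG was in 12.3% of windows of the 57 members higher in SPAD by 2-fold or more in 9.28% of those of the 194 members between, and in 7.24% of all 27025 windows. The cAMP response element TGACGTCA was in 3.51%, 2.58% and 1.88%, and TATAAA in 12.3%, 13.4% and 14.2%. The counts behind the members' shares were 7, 2 and 7 of 57 windows. Of the 15 windows of members at least 2-fold lower in SPAD, 1 held the E-box, 0 the cAMP response element and 1 TATAAA. The E2F site TTTCGCGC was in 1 of the 57 windows and the glucocorticoid response element in 0 of them. CACGTG and TGACGTCA each contain a CpG, and the median CpG number was 27 for the 57 windows, 10 for the 194 and 7 for all. The part of base composition in these shares was not tested.

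Prmt6, an arginine methyltransferase gene with a noncoding entry on the array, read 396.4 in SPAD and 53.5 in SVCD (3.01 ± 0.25), with a second feature at 3.31. It was the highest of the noncoding entries of protein-coding genes. Of these entries, 5 of 14 were at least 2-fold higher and 2 lower, where 14.3% and 11.7% of all features were.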
